A study of Mus musculus with 12 samples.

Results

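PMφs are built and kept by a small set of DNA-binding proteins, and 9 of their genes are described here out of the 43278 in the table. They were chosen by name, though with earlier results of these data known: Spi1, Cebpa, Cebpb, Cebpd, Maf, Gata6, Runx1, Bhlhe40 and Zeb2. RNA was sequenced from thioglycolate-elicited PMφs of wild-type C57BL/6J mice, 8 to 12 wk old and of both sexes, in 4 groups of 3 libraries. Control PMφs received neither agent, the oxLDL group was cultured with 100 µg/ml oxidized low-density lipoprotein for 24 h, the LPS group received 10 ng/ml LPS, and the oxLDL+LPS group received both. All 12 cultures came from mice given 4% thioglycolate 4 d before harvest and were selected by adherence over 18 h. Cells from up to 10 mice were combined before they were split into the groups, so the libraries do not stand for single animals. How long these libraries were exposed to LPS is not given in the sources used here.

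PU.1, the product of Spi1, opens chromatin at macrophage enhancers and is required for the lineage. The C/EBP proteins bind beside it, with C/EBPα tied to commitment and quiescence of myeloid cells and C/EBPβ and C/EBPδ to the acute inflammatory response. RUNX1 acts earlier, at the origin of blood cells, and continues to bind with PU.1. c-Maf, GATA6, BHLHE40 and ZEB2 set the state of mature tissue macrophages, GATA6 being the factor of resident cells of the peritoneal cavity. Each of these proteins is regulated after transcription as well, which RNA does not show.

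The deposited values are read counts that the authors scaled by 1 factor per library and rounded, called normalized counts here. They summed to 17152972 to 17709731 in libraries without LPS and to 22071853 to 26384551 in libraries with LPS. The spacing of the values implied an estimated 16725784 to 26178308 reads on genes per library. All 9 genes passed the filter on low values, which asked for 10 or more in 3 or more of the compared libraries, and the smallest number of reads implied behind a value was 79, for Gata6. All 8 macrophage markers were detected and together made up 10900 to 15400 CPM of each library total. The 9 neutrophil markers summed to 10.5 to 98.1 CPM, with Mmp8 at 131 to 1661 and S100a8 at 31 to 248 normalized counts, Ly6g at 0 and the others at 10 or below. The 7 T cell markers summed to 1.03 to 10.2 CPM, with Lck at 11 to 234 and Cd3e at 0 to 2 normalized counts. The sum of 10 mesothelial and fibroblast markers was larger, at 234 to 1480 CPM, and differed between libraries of 1 group. In whole cultures a lower value may come from fewer cells of a type or from less RNA per cell, and these cannot be told apart.

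In control PMφs the levels were compared per kilobase of exon, using gene models of GENCODE vM21 where the authors used vM4. Cebpa had 2452 ± 78.4 normalized counts per kilobase (SD, n = 3), Cebpb 2252 ± 455 and Spi1 2034 ± 139. The range of Cebpb overlapped those of the other two. Below them, Bhlhe40 had 1341 ± 248, Zeb2 352 ± 35.2, Maf 248 ± 27.0 and Runx1 122 ± 13.3 normalized counts per kilobase. None of the ranges of these 4 genes overlapped its neighbour in the order. Gata6 with 46.5 ± 15.7 and Cebpd with 36.5 ± 5.47 normalized counts per kilobase were the lowest of the 9, and their ranges overlapped.

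**Figure D1:**
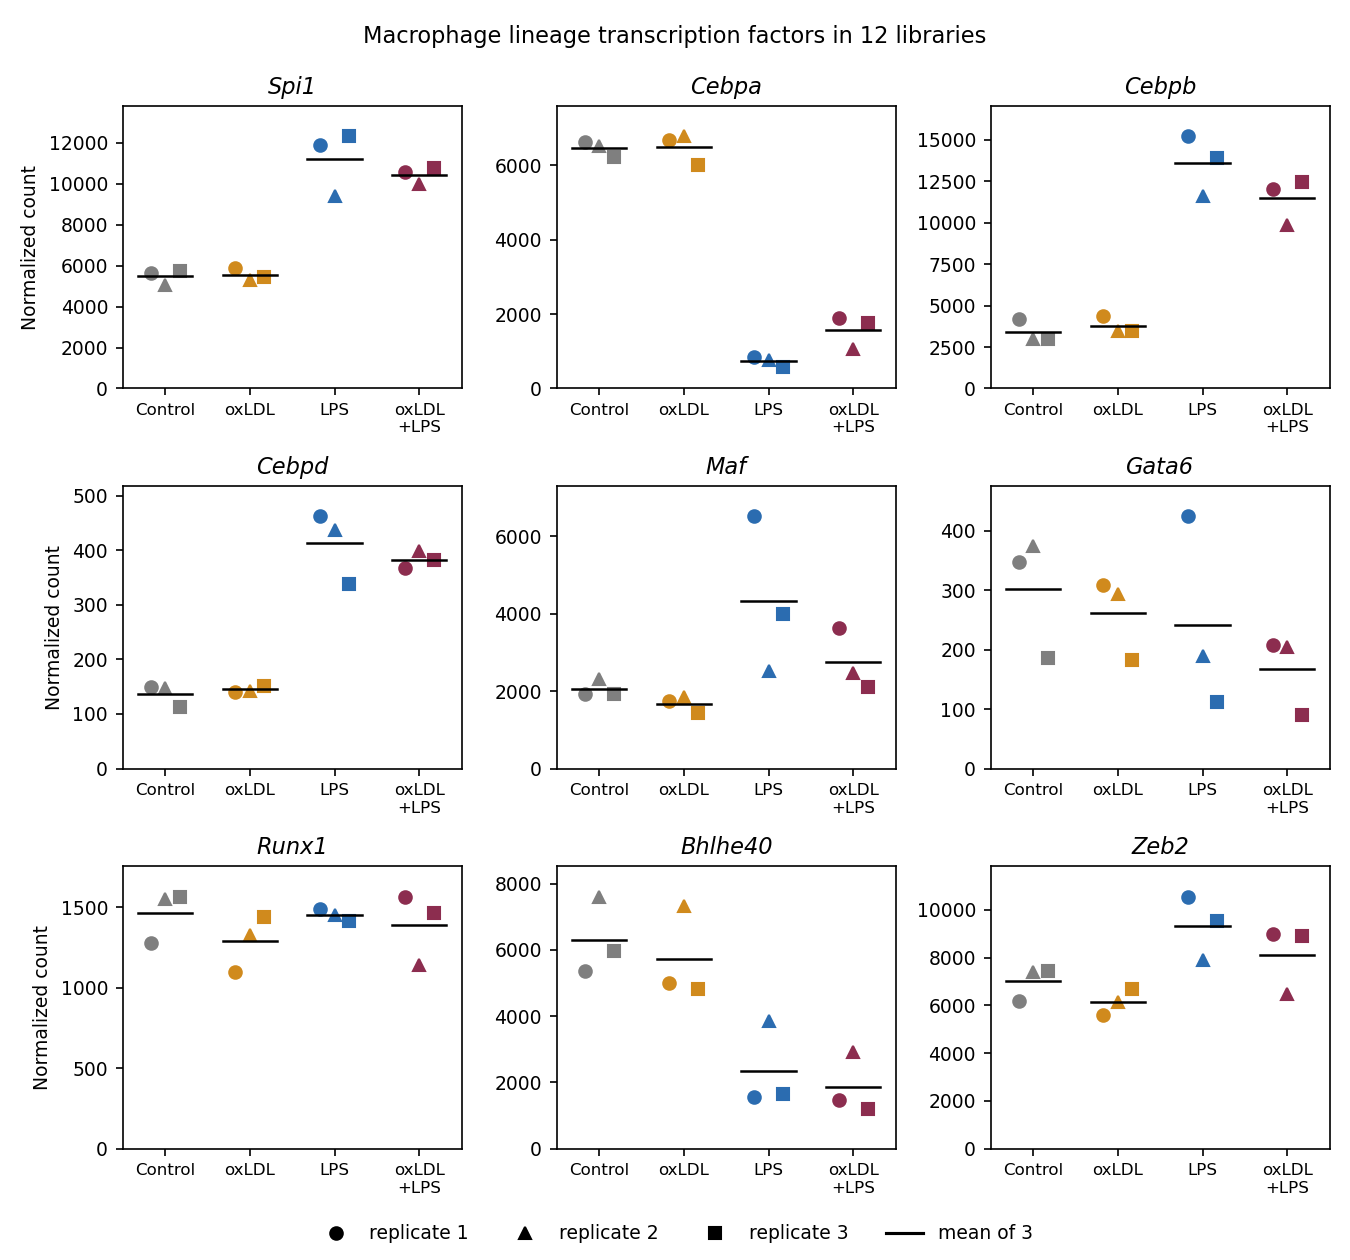
Normalized count (vertical axes, starting at 0) of the 9 genes in each of the 12 libraries, with 1 panel per gene, 4 groups on the horizontal axis, a circle, triangle or square for replicate 1, 2 or 3, and a line at the mean of 3. Cebpa falls from 6237 to 6642 in control libraries to 581 to 852 in LPS libraries and lies between 1072 and 1901 with oxLDL and LPS, whereas Runx1 stays between 1100 and 1566 in every library.

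The response to LPS was the main difference among the 9 genes. Against control, LPS raised 5 of them (31.4% of all 13023 genes tested rose) and lowered 2 (30.3% of all genes fell), by limma with Benjamini-Hochberg adjustment at an adjusted p under 0.1. In oxLDL-treated cells LPS gave the same numbers, 5 of 9 genes higher and 2 lower, where 28.2% and 26.3% of 12900 genes were called. The called genes were in each comparison Spi1, Cebpb, Cebpd, Maf and Zeb2 in the upward and Cebpa and Bhlhe40 in the downward direction. With the replicate number as a block, 68.7% of genes and 7 of 9 members were called against control, and 63.4% of genes and 8 of 9 members in the cells with oxLDL. Over all genes tested the median log2 fold change was −0.00 and −0.02 in these comparisons as deposited but −0.48 and −0.40 after each library was scaled to the same total, since the totals were higher with LPS, and the share of higher genes among those called went from 50.9% to 23.5% and from 51.7% to 23.7%. All 11 inflammatory genes used to check the labels were called higher with LPS in each comparison, among them Irg1 at log2 fold changes of 10.67 and 10.70. Of these 11, Il6, Il12b, Nos2 and Il1b passed the filter only through the LPS libraries, as did Cxcl2 in cells with oxLDL.

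Spi1 lies on chromosome 2 of GRCm38 (chr2:91082390-91115756, plus strand). In replicates 1, 2 and 3, its normalized count was 5643, 5054 and 5750 in control and 5904, 5316 and 5445 in oxLDL-treated PMφs. With LPS it was 11901, 9407 and 12310, and with oxLDL and LPS 10575, 9974 and 10785. Every library with LPS was above every library without it, and oxLDL made no visible step within either LPS state. The log2 fold change with LPS was 1.02 (standard error 0.13, adjusted p = 0.000340 from limma), a 2.03-fold rise, and 0.91 (standard error 0.08, adjusted p = 0.000130) in cells with oxLDL. After scaling to equal totals these were 0.54 and 0.52 and were still called.

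Genes known to depend on PU.1 in macrophages did not all follow. Of 18 on a list of these genes, 9 were called higher and 2 lower with LPS (median log2 fold change 0.24, against −0.00 over all genes). In cells with oxLDL 7 were called higher and 2 lower (median 0.21, against −0.02). Over all genes, 31.4% were called higher and 30.3% lower with LPS, and 28.2% and 26.3% in cells with oxLDL. Cd14, the LPS co-receptor, had log2 fold changes of 3.78 and 3.67 in the 2 comparisons. Cybb, a subunit of the NADPH oxidase, had 2.70 in each, and the scavenger receptor gene Msr1 2.63 and 1.95. Tlr4, the LPS receptor, was lower at −0.34 with LPS alone (adjusted p = 0.0800 from limma), and Tyrobp, an adaptor of activating receptors, at −0.28 in cells with oxLDL (adjusted p = 0.0877).

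The C/EBP genes moved apart. Cebpa is a gene of 1 exon on chromosome 7 (chr7:35119293-35121928, plus strand), Cebpb of 1 exon on chromosome 2 (chr2:167688915-167690418, plus strand) and Cebpd of 1 exon on chromosome 16 (chr16:15887286-15891031, plus strand). The 250 bases before the starts of Cebpa and Cebpb are shown because these genes took opposite directions, from RefSeq on GRCm38.p6, 5′ to 3′ on the gene's strand. Capitals mark matches to 10 short motifs on either strand. Cebpa is chr7:35119043-35119292 and Cebpb is chr2:167688665-167688914, both on the plus strand.
Cebpa: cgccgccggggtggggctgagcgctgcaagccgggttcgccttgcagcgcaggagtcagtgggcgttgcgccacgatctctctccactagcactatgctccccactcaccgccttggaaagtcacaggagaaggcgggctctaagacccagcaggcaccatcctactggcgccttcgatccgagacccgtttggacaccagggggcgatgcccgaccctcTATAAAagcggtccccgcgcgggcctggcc
Cebpb: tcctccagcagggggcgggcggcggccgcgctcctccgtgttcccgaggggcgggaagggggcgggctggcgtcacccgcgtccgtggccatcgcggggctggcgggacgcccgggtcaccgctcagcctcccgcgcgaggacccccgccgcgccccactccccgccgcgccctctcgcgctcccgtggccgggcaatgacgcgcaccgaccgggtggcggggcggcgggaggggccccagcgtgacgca

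The motifs searched were GAGGAA for PU.1, TTGCNNAA for C/EBP, the NF-κB motif, TGANTCA for AP-1, TGACGTCA for CRE, CACGTG for the E-box, AGATAA for GATA factors, TGTGGT for RUNX, the interferon-stimulated response element and TATAAA for the TATA box. Among 32851 promoter windows of the same length they were present in 23.3%, 9.56%, 1.41%, 6.75%, 1.55%, 6.02%, 9.99%, 14.0%, 2.98% and 12.4%, in that order. The Cebpa window held a single match, TATAAA, from 30 to 25 bases before the start. None of the 10 strings was present in the Cebpb window, which was 81.6% G and C against 66.4% for Cebpa. Promoter windows were matched for 4 of the 9 genes, and a match of letters is a description of the window, not of binding.

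In control PMφs the normalized count of Cebpa was 6642, 6512 and 6237, and in oxLDL-treated PMφs 6678, 6784 and 6007. With LPS it was 852, 770 and 581, the lowest values of the gene, and with oxLDL and LPS 1901, 1072 and 1749. The ranges of the LPS groups overlapped neither each other nor those of the groups without LPS. LPS lowered Cebpa 8.90-fold, a log2 fold change of −3.15 (adjusted p = 1.675e-06 from limma, standard error 0.14). In cells with oxLDL it was lowered 4.24-fold, at −2.08 on the log2 scale (adjusted p = 0.000179, standard error 0.21). Only 0.952% of the genes tested had a lower log2 fold change with LPS than Cebpa, and 2.39% in cells with oxLDL.

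Cebpb had 4176, 3009 and 2976 normalized counts in control PMφs and 4371, 3437 and 3459 with oxLDL. With LPS the counts were 15204, 11636 and 13902, and with oxLDL and LPS 12053, 9859 and 12473. The ranges with and without LPS were far apart, and those of the 2 groups with LPS overlapped. The log2 fold change was 2.01 with LPS (standard error 0.16, adjusted p = 3.537e-05 from limma) and 1.61 in cells with oxLDL (standard error 0.14, adjusted p = 8.143e-05). On the opposite strand, Tmem189 shares 312 exonic bases with Cebpb, and its mean was 6092 in control and 3668 in LPS libraries. Whether reads were counted by strand is not stated, so the part of Tmem189 reads in the Cebpb values was not tested.

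Cebpd was the least abundant of the C/EBP genes. Its normalized count was 149, 148 and 113 in control, 141, 143 and 151 in oxLDL-treated, 462, 437 and 339 in LPS-treated, and 367, 399 and 382 in PMφs given both. The libraries with LPS lay above all libraries without it, at log2 fold changes of 1.59 (standard error 0.17, adjusted p = 0.000173 from limma) without and 1.39 (standard error 0.11, adjusted p = 5.61e-05) with oxLDL. Spidr overlaps 562 exonic bases of Cebpd on the opposite strand and was at 304 to 388 in all libraries, so its own value did not follow that of Cebpd.

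Seen as shares of the 3 C/EBP genes per kilobase of exon, Cebpa made up 52.0% ± 4.17 (SD, n = 3) in control and 49.4% ± 3.15 in oxLDL-treated PMφs. The remainder was almost all Cebpb, at 47.2% ± 4.203 and 49.8% ± 3.20. With LPS the share of Cebpa was 2.99% ± 0.64 and that of Cebpb 95.8% ± 0.89, whereas with oxLDL and LPS they were 7.08% ± 1.22 and 91.7% ± 1.01. Cebpd was a small part in every library, at 0.687% to 0.876% without LPS and 0.947% to 1.51% with LPS. On the log2 scale the ratio of Cebpb to Cebpa normalized counts was −0.95 ± 0.24 in control and 4.22 ± 0.34 in LPS-treated PMφs, a difference of 5.17, and −0.80 ± 0.18 and 2.90 ± 0.27 in the groups with oxLDL, a difference of 3.70 (SD, n = 3 each). The exact two-sided permutation test gave p = 0.1 for each, the smallest that 3 against 3 libraries allow.

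**Figure D2:**
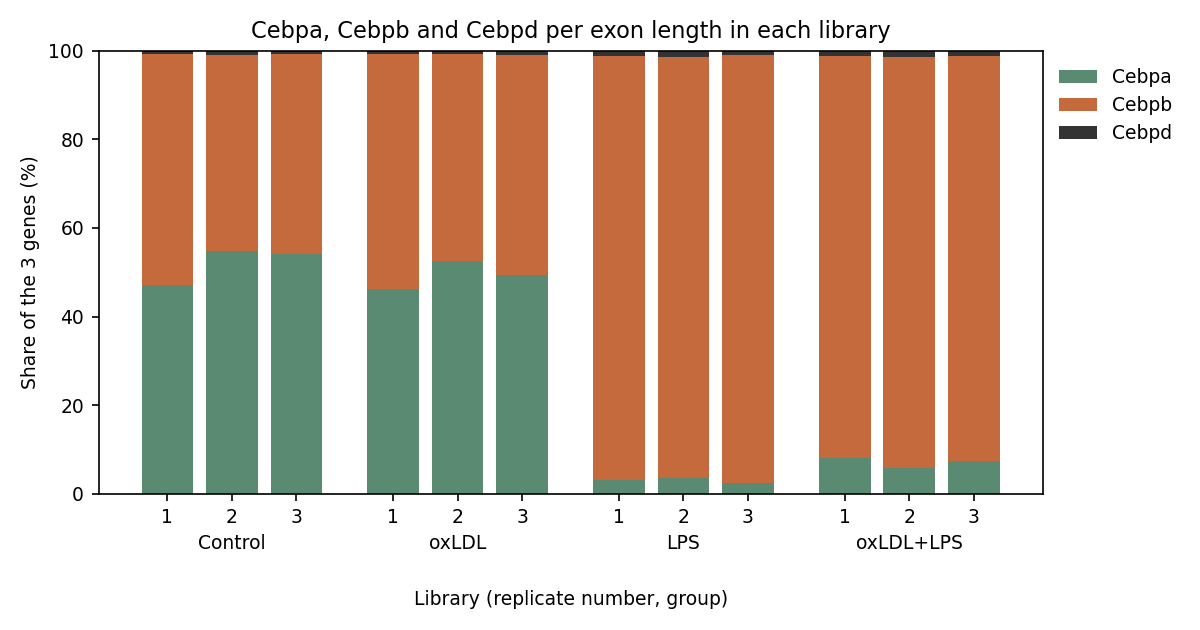
Share (%) of Cebpa, Cebpb and Cebpd in their sum per exon length, with 1 stacked bar per library and replicate numbers 1 to 3 in each group on the horizontal axis. Cebpa holds 46.3% to 54.8% of the sum in the 6 libraries without LPS, 2.31% to 3.59% with LPS, and 5.75% to 8.16% with oxLDL and LPS.

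A list of genes with known C/EBP sites was made of inducible genes. A rise with LPS was thus built into the choice and is no test of C/EBP. Of 15, 14 were called higher and 0 lower in each of the 2 comparisons, where 31.4% and 28.2% of all genes were called higher. The median log2 fold changes were 6.93 and 6.09. Il6, Il12b, Nos2 and Il10 were under 10 in every library without LPS and passed the filter only through the libraries with LPS, so their direction was fixed. In each comparison Csf3 and Il1b also had fewer than 3 libraries without LPS at 10 or more, as had Cxcl2 in cells with oxLDL. These too passed only through the LPS libraries. Of the 11 genes other than Il6, Il12b, Nos2 and Il10, which include these, 10 were called higher in each comparison, with medians of 6.58 and 5.43. Tnf had a log2 fold change of 9.83 with LPS (standard error 0.27) and 9.03 in cells with oxLDL (standard error 0.37). Il1b went from 7 to 20 normalized counts in control to 51068 to 152939 in LPS libraries, and Nos2 from 2 to 8 to 10173 to 14245. Arg1, the remaining gene, ran from 396 to 3605 within the control group, and its log2 fold change was −1.57 (adjusted p = 0.263). Of these 15 genes, 7 are also among the 11 used to check the labels.

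Runx1, on chromosome 16 (chr16:92601466-92826149, minus strand), had the narrowest range of the 9 genes relative to its level. The normalized count was 1279, 1552 and 1561 in control, 1100, 1328 and 1442 with oxLDL, 1489, 1453 and 1414 with LPS, and 1566, 1141 and 1461 with both. All 4 groups overlapped. As deposited, the log2 fold change with LPS was −0.01 (95% interval −0.25 to 0.23, adjusted p = 0.966 from limma) and in cells with oxLDL 0.10 (−0.25 to 0.46, adjusted p = 0.611). Its direction with LPS depends on the scaling, since with equal totals Runx1 was called lower against control at −0.49 (adjusted p = 0.00631) and was at −0.29 in cells with oxLDL (adjusted p = 0.156).

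Maf, which encodes c-Maf and lies on chromosome 8 (chr8:115682942-115707794, minus strand), had the widest spread among the LPS libraries of the genes that rose. Its counts were 1914, 2301 and 1918 in control and 1745, 1841 and 1426 in oxLDL-treated PMφs. With LPS they were 6512, 2510 and 3990, and with oxLDL and LPS 3633, 2469 and 2119. Replicate 1 was the highest library in each LPS group, and the lowest LPS value exceeded the highest control value by little. The log2 fold change was 0.98 with LPS (standard error 0.30, adjusted p = 0.0267 from limma) and 0.68 in cells with oxLDL (standard error 0.20, adjusted p = 0.0270). After scaling to equal totals Maf was not called in either comparison, at 0.50 (adjusted p = 0.221) and 0.29 (adjusted p = 0.278).

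The small Maf proteins Mafk and Maff, which lack an activation domain, went up with LPS. On the log2 scale Mafk was at 1.77 without and 1.52 with oxLDL, and Maff at 3.39 and 2.78. Of 14 genes associated with Maf proteins in macrophages, 3 were called higher and 2 lower with LPS (median 0.07). In cells with oxLDL 3 were called higher and 3 lower (median −0.18). The shares over all genes were 31.4% higher and 30.3% lower with LPS, and 28.2% and 26.3% in cells with oxLDL. Mertk, a receptor for apoptotic cells, had log2 fold changes of 1.309 and 0.96, and the chemokine gene Pf4 0.56 and 0.54. Il10, the anti-inflammatory cytokine, went from 1 to 4 normalized counts in control to 18 to 136 in LPS libraries and passed the filter only through the latter. Gas6, the ligand of Mertk, fell, at −1.34 in each. Stab1, a scavenger receptor, was lower with LPS alone (−1.124), and the mannose receptor Mrc1 (−0.27) was lower in cells with oxLDL. The hemoglobin scavenger Cd163 was also called lower there (−1.61). Its normalized count was only 13 to 25 with oxLDL and 2 to 13 with both, and it passed the filter only through the oxLDL libraries.

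Gata6 was low and uneven. It lies on chromosome 18 (chr18:11052064-11085635, plus strand). The normalized count was 348, 374 and 186 in control, 309, 294 and 183 with oxLDL, 424, 189 and 112 with LPS, and 208, 205 and 90 with oxLDL and LPS. Replicate 3 was the lowest library in every group, and all groups overlapped. The log2 fold change was −0.47 with LPS (95% interval −1.58 to 0.64, adjusted p = 0.434 from limma) and −0.70 in cells with oxLDL (−1.55 to 0.15, adjusted p = 0.153). With equal totals the first was −0.96 (adjusted p = 0.149, and 0.0129 with the block), and in 1 fit of all 12 libraries with the block it was called (adjusted p = 0.0768). Without LPS replicate 1 it was −0.99 (adjusted p = 0.0582), and without oxLDL replicate 3 the change in cells with oxLDL was −0.94 (adjusted p = 0.0962). In each comparison 5 of 6 such fits with 1 library left out were not called. Their values reached −0.03 and −0.30, with adjusted p up to 0.959 and 0.372. The change in cells with oxLDL was called lower in the replicate block (adjusted p = 0.00630), as it was with equal totals (−1.09, adjusted p = 0.0376).

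Markers of fibroblasts and of mesothelial cells, the lining cells of the cavity, moved with Gata6 between libraries. The sum of 10 such markers in replicates 1, 2 and 3 was 1480, 1030 and 333 CPM in control and 1200, 849 and 355 with oxLDL. With LPS it was 1430, 623 and 240, and with oxLDL and LPS 846, 712 and 234. All 10 markers were measured in the libraries, Col1a1 being at 1782 to 12012 normalized counts and the mesothelial genes Upk3b at 26 to 272 and Msln at 2 to 14. The fibroblast markers thus weighed most in the sum. In each group the library with the lowest sum was replicate 3, as for Gata6, and the part of these cells in the Gata6 values was not tested.

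**Figure D3:**
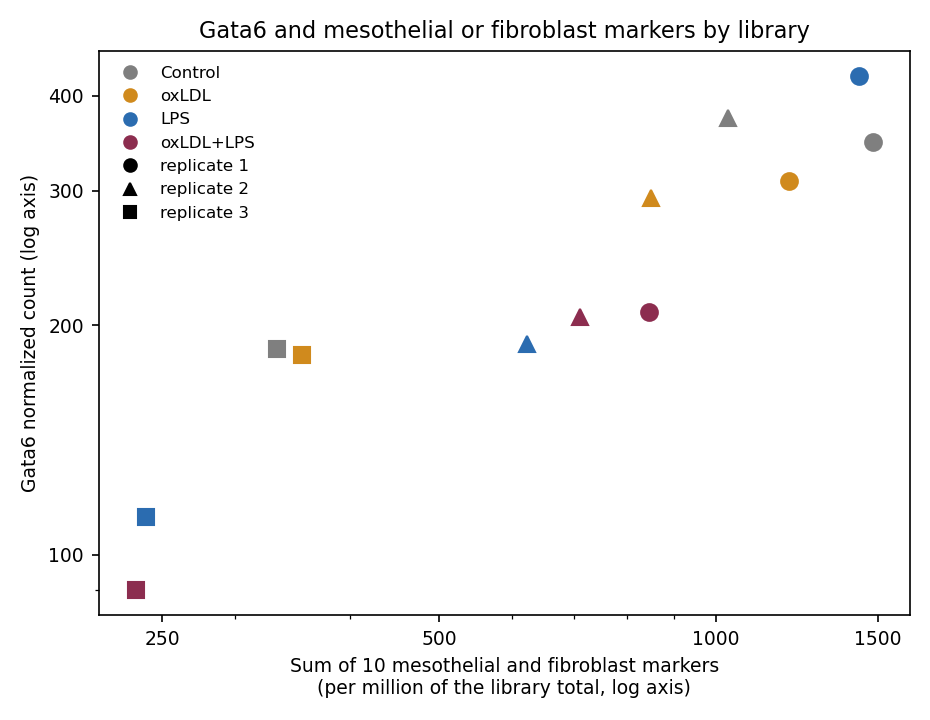
Gata6 normalized count (vertical log axis) against the sum of 10 mesothelial and fibroblast markers in CPM of the library total (horizontal log axis), with 1 point per library, colors for the 4 groups and shapes for the replicate numbers. The 4 libraries of replicate 3 lie at the lower left, with 90 to 186 Gata6 counts, and LPS replicate 1 is the highest point, at 424.

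Genes that depend on Gata6 in resident peritoneal macrophages were called in both directions with LPS. Of 19 tested, 9 were higher and 3 lower in each comparison, with medians of 0.51 and 0.50, against −0.00 and −0.02 over all genes. Of all genes tested, 31.4% were called higher and 30.3% lower with LPS, and 28.2% and 26.3% in cells with oxLDL. Timd4, at 4 to 16 normalized counts in control and 1 to 9 with oxLDL, passed the filter in each comparison only through the LPS libraries. Without Timd4, 8 of 18 genes were called higher in cells with oxLDL. F10, a coagulation factor, had log2 fold changes of 4.15 and 3.97, Serpinb2, a protease inhibitor, 4.999 and 4.11, and the matrix protein gene Thbs1 3.40 and 3.24. The lower genes were Rarb, a retinoic acid receptor, at −1.66 and −1.23, and Naip1, which senses bacterial proteins, at −2.62 and −1.98. The fatty acid binding protein gene Fabp7 was also lower, at −0.72 and −1.14. Rarb was at only 18 to 48 normalized counts with oxLDL and 7 to 22 with both. In that comparison Rarb passed the filter only through the oxLDL libraries.

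Bhlhe40 encodes a helix-loop-helix repressor with roles in macrophage proliferation and cytokine production and lies on chromosome 6 (chr6:108660629-108666925, plus strand). Its counts were 5360, 7614 and 5958 in control and 4989, 7331 and 4823 with oxLDL. They were 1551, 3857 and 1659 with LPS and 1456, 2918 and 1191 with oxLDL and LPS. Replicate 2 was the highest library of all 4 groups, and the groups with LPS lay below those without it. LPS lowered Bhlhe40, with log2 fold changes of −1.54 against control (adjusted p = 0.00568 from limma, standard error 0.33) and −1.71 in cells with oxLDL (adjusted p = 0.00454, standard error 0.33).

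Zeb2, a zinc finger repressor that maintains tissue macrophage identity, lies on chromosome 2 (chr2:44983632-45117395, minus strand). Its most upstream and most downstream annotated starts are shown since motifs of PU.1, C/EBP and AP-1 were found there. They are the 250 bases before each start from RefSeq on GRCm38.p6, at chr2:45117443-45117692 and chr2:45110278-45110527, written 5′ to 3′ on the minus strand with matches in capitals.
Zeb2 upstream start: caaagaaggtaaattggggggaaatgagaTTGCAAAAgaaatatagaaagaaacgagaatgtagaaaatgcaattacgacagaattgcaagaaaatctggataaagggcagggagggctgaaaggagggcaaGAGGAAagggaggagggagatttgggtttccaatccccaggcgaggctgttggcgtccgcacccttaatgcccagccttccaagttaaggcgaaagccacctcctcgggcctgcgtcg
Zeb2 downstream start: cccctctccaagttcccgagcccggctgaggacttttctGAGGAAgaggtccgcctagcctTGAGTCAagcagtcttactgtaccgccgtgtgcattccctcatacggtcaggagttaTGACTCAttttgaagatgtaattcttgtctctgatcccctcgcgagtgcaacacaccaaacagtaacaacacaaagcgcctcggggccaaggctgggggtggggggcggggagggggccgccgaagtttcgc

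The upstream window held TTGCAAAA, a C/EBP string, from 221 to 214 bases before the start and GAGGAA from 118 to 113. The downstream window held GAGGAA from 211 to 206 bases before the start, and the AP-1 strings TGAGTCA from 189 to 183 and TGACTCA from 132 to 126. The matches overlapped in neither window. The other 2 Zeb2 windows overlap and share 1 GAGGAA, and the opposite strand of the second Runx1 window carried it as well.

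The Zeb2 normalized count was 6200, 7387 and 7443 in control and 5575, 6135 and 6669 in oxLDL-treated PMφs. With LPS it was 10551, 7908 and 9543, and with oxLDL and LPS 8986, 6470 and 8888. The LPS libraries were above the control libraries, while the oxLDL+LPS libraries overlapped those with oxLDL. As deposited, Zeb2 was higher with LPS by 0.41 (standard error 0.14, adjusted p = 0.0355 from limma) and in cells with oxLDL by 0.39 (standard error 0.15, adjusted p = 0.0624), but with equal totals the changes were −0.08 (adjusted p = 0.664) and 0.00 (adjusted p = 0.988), and quantile normalization put them at −0.33 (adjusted p = 0.0766) and −0.16. Without control replicate 1 the first call was lost (0.32, adjusted p = 0.128). The second was lost without oxLDL replicate 1 (adjusted p = 0.186), oxLDL replicate 2 (0.136), oxLDL+LPS replicate 1 (0.160) or oxLDL+LPS replicate 3 (0.175). Zeb1, the paralog of Zeb2, rose from a mean of 50 to 334.3 normalized counts with LPS, or by 2.73 on the log2 scale (adjusted p = 3.73e-05 from limma, standard error 0.22), and by 2.09 in cells with oxLDL.

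**Figure D4:**
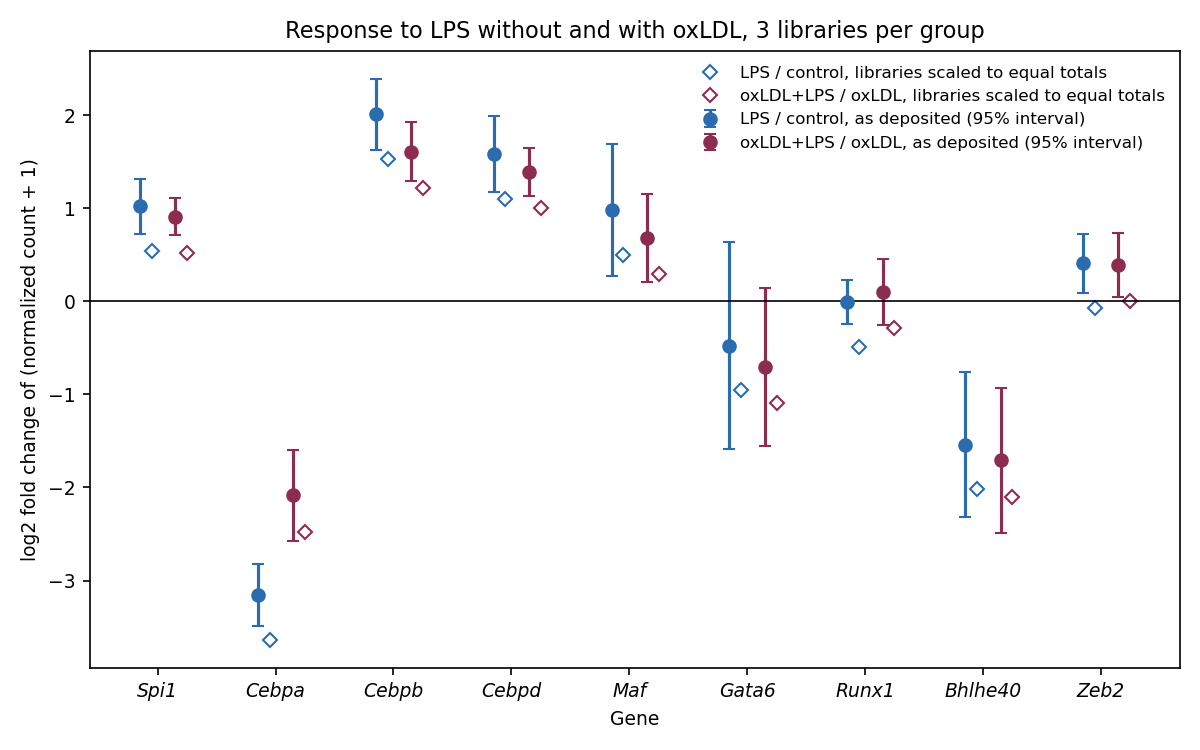
Log2 fold change of normalized count + 1 with LPS (vertical axis) for the 9 genes, without oxLDL (blue) and in cells with oxLDL (dark red), 3 libraries per group. Filled points with 95% intervals are the values as deposited and open diamonds those after scaling to equal totals. Cebpa is the lowest, at −3.15 and −2.08, Cebpb the highest, at 2.01 and 1.61, and Zeb2 goes from 0.41 to −0.08 and from 0.39 to 0.00 with equal totals.

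Among 15 tested relatives of the 9 genes, 5 were called higher and 4 lower with LPS (median 0.10), and 6 higher and 4 lower in cells with oxLDL (median 0.31). The lower genes included Runx2, at −1.60 and −1.29, and Cebpg, a C/EBP protein without an activation domain, at −0.76 and −0.48 on the log2 scale. Of 24 other myeloid transcription factors, 10 were called higher and 10 lower with LPS (median 0.11), and of 23 in cells with oxLDL 9 and 10 (median −0.36). Beside both lists, the shares over all genes were 31.4% higher and 30.3% lower with LPS, and 28.2% and 26.3% in cells with oxLDL. Rbpj, the effector of Notch, had log2 fold changes of 2.45 and 2.18, and Ets2 3.35 and 3.13. Gfi1, a repressor, went from 1 to 4 normalized counts in control to 113 to 292 in LPS libraries and also passed the filter only through LPS libraries. Pparg, a fatty acid receptor, fell, at −3.59 and −3.38, as did the lysosomal regulator Tfeb, at −1.72 and −1.35, and Mef2d, at −1.22 and −1.14. Tfec, a relative of Tfeb, was higher at 1.92 and 1.90.

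oxLDL alone left the 9 genes near their control values. limma called 0 of 9, and 0% of the 12751 genes tested, at an adjusted p under 0.1, the smallest adjusted p being 0.2503. At an unadjusted p under 0.05 it called 381 genes, of which 1, Maf, was a member. Since libraries of the same replicate number resembled each other, the fit with the number as a block is given too. It called 0 of 9 genes higher (1.8% of genes) and 3 of 9 lower (2.92%), which were Maf, Runx1 and Zeb2.

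Maf was lower with oxLDL in each replicate number, with differences of −0.13, −0.32 and −0.43 on the log2 scale, and its groups did not overlap. The log2 fold change of −0.29 had an adjusted p of 0.0218 from limma with the block and of 1 without it. Zeb2 was at −0.19 (adjusted p = 0.0572 with the block) and Runx1 at −0.19 (adjusted p = 0.0715 with the block). Each of these was lower in all 3 replicate numbers, though the groups overlapped. With number 2 left out of the block 0 members and 139 genes were called, with number 1 left out 1 member, Maf, and 214 genes, and with number 3 left out 5 members and 1285 genes. In 1 fit of all 12 libraries with the block 0 members and 6 genes were called. For Spi1 the log2 fold change was 0.02 (95% interval −0.16 to 0.20) and for Cebpa 0.00 (−0.17 to 0.17). Cebpb was higher in all 3 numbers, by 0.07, 0.19 and 0.22, with an adjusted p of 0.109 in the block.

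With LPS present, Cebpa was the member that differed most with oxLDL. limma without the block called 0 of 9 genes, and 0% of 12786, at an adjusted p under 0.1, where 890 genes, of which 1, Cebpa, was a member, had an unadjusted p under 0.05. The block called 1 of 9 genes higher (4.42% of genes) and 2 of 9 lower (8.74%). Cebpa was 2.11-fold higher, with a log2 fold change of 1.07 (95% interval 0.50 to 1.65, adjusted p = 0.698 from limma, 0.00962 with the block). It was higher in all 3 replicate numbers, by 1.16, 0.48 and 1.59, and the groups did not overlap. Only 1.64% of genes had a change of a larger size. Without oxLDL+LPS replicate 2, the log2 fold change was 1.33 and was called without the block (adjusted p = 0.0626). Cebpa was not called in 5 of 6 such fits with 1 library left out (adjusted p up to 0.999).

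The genes called lower in the block were Maf and Bhlhe40. Maf was at −0.59 (adjusted p = 0.0475 with the block, 0.757 without), from differences of −0.84, −0.02 and −0.91 in the 3 numbers. Bhlhe40 was at −0.32 (adjusted p = 0.0584 with the block, 0.906 without), from −0.09, −0.40 and −0.48. With the block and equal totals together Cebpa was still called (adjusted p = 0.0353), whereas Maf (0.1001) and Bhlhe40 (0.1115) were not. With number 1 or number 3 left out of the block, which leaves 4 libraries, 0 members were called among 71 and 0 genes. With number 2 left out, 4 members were called, Cebpa, Maf, Gata6 and Bhlhe40, among 2945 genes. Cebpb was at −0.335, −0.24 and −0.16 in the 3 numbers, with an adjusted p of 0.134 in the block, and Zeb2 at −0.23, −0.29 and −0.10, with an adjusted p of 0.168.

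**Figure D5:**
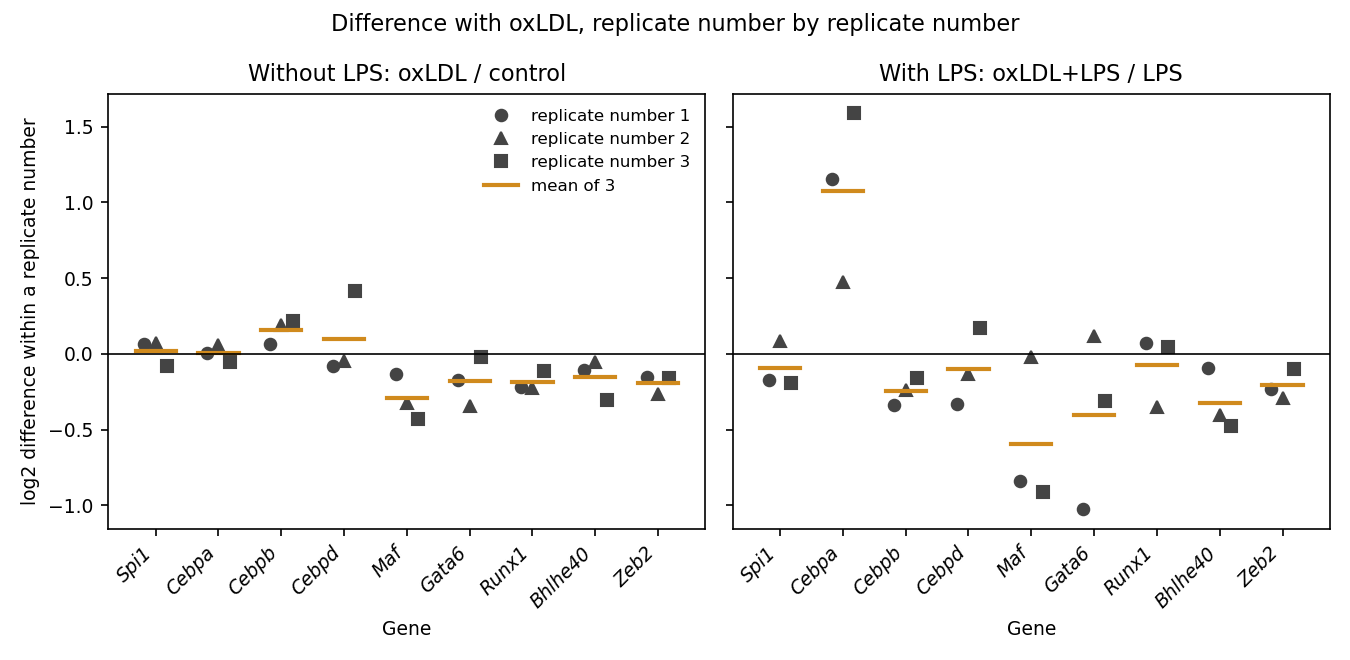
Log2 difference with oxLDL within each replicate number (vertical axis) for the 9 genes, without LPS (left) and with LPS (right). A circle, triangle or square is the difference within number 1, 2 or 3 and the bar is their mean. Without LPS all points lie between −0.43 and 0.415, and with LPS Cebpa stands at 1.16, 0.48 and 1.59.

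Whether the oxLDL effect differed with LPS was tested as an interaction over the 12 libraries. limma called 0 of 9 genes and 0% of 13482, with 418 genes, Cebpa among them, at an unadjusted p under 0.05. With the replicate numbers blocked separately in libraries with and without LPS, 1.09% of genes and 2 of 9 members were called. These were Cebpa, at an interaction of 1.07 (standard error 0.21, adjusted p = 0.0707), and Cebpb, at −0.40 (standard error 0.08, adjusted p = 0.0785). The log2 ratio of Cebpb to Cebpa was lower in oxLDL+LPS than in LPS libraries, with differences of −1.49, −0.72 and −1.745 in the 3 numbers (p = 0.1 in the exact two-sided permutation test, the smallest it allows), and 0.15 higher in oxLDL than in control libraries (p = 0.4 in the same exact test). With 1 block over all 12 libraries 0 genes were called for the interaction.

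The lists around the 9 genes held no gene called for oxLDL without the block, at 0 of each list in either LPS state and for the interaction. Without LPS, the block called 1.8% of all genes higher and 2.92% lower. Of 18 PU.1-dependent genes it called 1 higher, Msr1 (0.31), and 4 lower, including Tlr4 (−0.18) and Csf2rb (−0.29). It called 0 of 11 inducible C/EBP genes, 0 of 15 relatives and 1 of 23 myeloid factors, Id3 (−0.25). It called 1 higher and 1 lower of 13 genes associated with Maf proteins, the lower one being the complement gene C1qa (−0.44), and 1 higher and 1 lower of 18 Gata6-dependent genes, the lower one being Rarb (−0.76).

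With LPS, the block called 4.42% of all genes higher and 8.74% lower. Of the 15 inducible C/EBP genes, 1 was higher and 11 were lower in the block (median −0.77, against −0.01 over all genes). Among the lower ones were Csf3, a granulocyte growth factor, at −1.06 and Nos2 at −1.39. Of 13 genes associated with Maf proteins 1 was higher, Clec4n (1.58), and 6 were lower, with C1qa at −0.86. Gata6-dependent genes gave 0 higher and 4 lower of 19, with Serpinb2 at −0.84 and Timd4 at −0.67, and PU.1-dependent genes 1 higher and 2 lower of 18, with Cd14 at −0.35. Of 16 relatives 3 were higher and 2 lower, with Bhlhe41 at 0.36, and of 24 myeloid factors 3 were higher and 5 lower, with Irf8, a partner of PU.1, at −0.83 and Tfeb at 0.34. For the interaction the smallest unadjusted p values on these lists belonged to Tfeb (0.37) and Irf8 (−0.74) among the myeloid factors, Msr1 (−0.68) among the PU.1-dependent genes and Il1b (−2.02) among the inducible genes.

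The genes whose log2 values ran most like those of the 9 were sought among 10981 genes over the 12 libraries, which fall into groups with and without LPS, and each correlation spans that step and is a description only. Spi1 was closest to Pgap2 (Pearson's r = 0.997) and Ifnar2 (0.996), Cebpa to Ttll1 (0.998) and B3gnt8 (0.996), and Cebpb to 1810055G02Rik (0.993) and the cytoskeletal gene Zyx (0.991). Cebpd was closest to Rnf126 (0.990) and the Notch ligand gene Jag1 (0.989), and Bhlhe40 to Ubn1 (0.986) and Ceacam1 (0.982). The means of B3gnt8 were 542.7 in control, 517.3 with oxLDL, 69.0 with LPS and 124.0 with both, the order of the LPS groups being that of Cebpa. The genes with a smaller LPS step had looser matches, with r = 0.951 and 0.95 for Maf (Arhgef5, Tnrc18), 0.973 and 0.963 for Zeb2 (Ago3, Ep300), 0.973 and 0.972 for Gata6 (Ildr2, Tenc1) and 0.923 and 0.902 for Runx1 (Sec16a, Slc26a2).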

How the data were processed

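Poly(A) RNA of the 12 cultures was made into directional libraries and sequenced as 150-bp paired ends. The authors trimmed reads with Trimmomatic 0.32, aligned them with STAR 2.5.1b to mm10 (GRCm38) and counted exonic reads with featureCounts on GENCODE vM4. The deposited signal is those counts scaled by the authors with 1 factor per library and rounded. Read from the spacing of the values, the factors were 0.7635 to 1.413. The table held 43278 gene symbols, 18273 of them at 0 in all libraries and 25 turned into dates by a spreadsheet. Rows named as dates were not removed, so those that passed the filter entered the tests.

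Tests for counts did not apply, so groups were compared with limma 3.58.1 (lmFit and eBayes with a trend) in R 4.3.3 on log2(value + 1), a scale that understates changes of low genes. Tested genes had 10 or more in 3 or more of the compared libraries, and an adjusted p under 0.1 (Benjamini-Hochberg over all genes) was called. The fits were tested on simulated data. For the Cebpb to Cebpa ratio an exact permutation test was used. The study's methods speak of independent experiments in general, and the labels do not tie libraries to experiments. A limma p-value here sets a difference against the variation among these libraries within groups. Without the block, that variation includes differences between replicate numbers.

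Same-numbered libraries deviated together from their group means. The correlation over 13482 genes was 0.234 to 0.657 in the 18 pairs with the same number and −0.44 to 0.0332 in the 36 others, so the numbers were taken to pair the libraries, and the block was an alternative because the study's methods name none.

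The 9 members and all lists were chosen with earlier results of these data known. Beyond the members, genes were named by a rule: in each list and comparison the called genes with the smallest p, at most 3 higher and 3 lower, or where none was called at most 2, and for each member the 2 genes with the highest correlation among those with at least 50 in at least 3 libraries. Nos2, Il1b and Arg1 values and genes called in the block were added after values were seen. Promoter windows came from RefSeq (GRCm38.p6), and positions and exon lengths from GENCODE vM21. A few items the naming rule picks are not reported here. Alternatives are given in the closing section.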

Additional observations from a re-analysis of the deposited data

Results flagged for a closer look

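The change of Cebpa with oxLDL differed between libraries with and without LPS by 1.07 on the log2 scale. It reached an adjusted p under 0.1 for the interaction in limma only with the replicate numbers blocked within each LPS state (adjusted p = 0.0707), without a block when oxLDL+LPS replicate 2 was left out (1.33, adjusted p = 0.0830), or with 1 block over all libraries when number 2 was left out (1.40), and with all libraries and no block the adjusted p was 1.00.

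Cebpb moved the other way. With oxLDL it was higher than control in all 3 replicate numbers and lower than LPS in all 3, and the interaction of −0.4017 passed with the numbers blocked within each LPS state (adjusted p = 0.0785 from limma) and did not without a block.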

How the results depend on the processing

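Pseudocounts of 0.5 or 5, either change of the filter and robust eBayes changed no call or direction of any member in the 5 comparisons. The replicate block changed 7 of 45 member results and the block within LPS state 2 of 9, all given in the report, and changed no other call of a member.

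Scaling mattered most for LPS. With equal totals, with or without the block, Zeb2 was −0.0757 against control and 0.0784 for the interaction, and Runx1 −0.29 in cells with oxLDL and 0.014 for oxLDL+LPS against LPS. Quantile normalization gave −0.33, −0.16 and 0.16 for Zeb2 (against control, in cells with oxLDL and for the interaction), −0.17 for Runx1 in cells with oxLDL and 0.0299 for Spi1 in oxLDL+LPS against LPS.

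A few settings were chosen after seeing the data: the block with equal totals, the block without each number (1 residual degree of freedom in the comparisons of 6 libraries) and 12 libraries in 1 fit with the block. For oxLDL against control, 3 members and 601 genes were called in the block, 3 and 709 in the block with equal totals, and 0 and 6 in 12 libraries with the block, where Maf, Runx1 and Zeb2 were no longer called. For oxLDL+LPS against LPS the block called 3 members and 1682 genes, the block with equal totals 1 and 1574, 12 libraries in 1 fit 1 and 29, and 12 libraries with the block 1 and 1048. For the interaction the block within LPS state called 2 members and 147 genes.

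With each library, or each number of the block, left out, the counts ran from 0 to 5 members and 0 to 1285 genes for oxLDL against control, 0 to 4 and 0 to 2945 for oxLDL+LPS against LPS, and 0 to 1 and 0 to 9 for the interaction. Without oxLDL+LPS replicate 2, 1 member and 91 genes were called against LPS, and 1 and 6 for the interaction. Values near 0 changed sign over these fits. With LPS, Runx1 ran from −0.12 to 0.0621 against control and from −0.10 to 0.26 in cells with oxLDL. For oxLDL against control the ranges were −0.0377 to 0.0691 (Spi1), −0.0288 to 0.0589 (Cebpa), −0.0642 to 0.18 (Cebpd) and −0.50 to 0.0588 (Gata6). For oxLDL+LPS against LPS they were −0.23 to 0.0204 (Cebpd), −0.85 to 0.11 (Gata6), −0.17 to 0.0599 (Runx1) and −0.71 to 0.10 (Bhlhe40), and for the interaction −0.64 to 0.0483 (Maf), −0.67 to 0.29 (Gata6), −0.00105 to 0.24 (Runx1), −0.55 to 0.25 (Bhlhe40) and −0.13 to 0.14 (Zeb2). The causes were not tested.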
